A study of Mus musculus with 10 samples.

Results

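A group of 40 genes was higher in RAW264.7 macrophages given lipopolysaccharide (LPS) than in cells without it, and higher again when the cells had also received compound **1**. These 40 LPS-induced genes, out of 43432 in the deposited count table, were chosen from the levels in 3 of the 5 conditions. CPM (counts per 1000000) is a gene's count scaled to the total of its library, and L is log2(mean CPM + 1) of the 2 libraries of a condition. A gene was taken when L was at least 1 higher in DMSO + LPS than in DMSO, at least 0.5 higher at 32 µM of **1** than in DMSO + LPS, and when both 32 µM libraries lay above both DMSO + LPS libraries. Of 717 genes raised by at least 1 with LPS, 49 were at least 0.5 higher at 32 µM without overlap, 318 were at least 0.5 lower without overlap, and 350 were neither. From the 49 genes, 2 solute carriers (*Slc22a4* and *Slc39a4*), the gene model *Gm21399* and 6 genes set aside by name (*Txnrd1*, *Prdx1*, *Cxcl3*, *Akr1b8*, *Srxn1* and *Ass1*) were left out, which left 40 genes or 5.58% of the LPS-raised genes. Each criterion read the same DMSO + LPS libraries, so the levels in DMSO, DMSO + LPS and 32 µM are given below as a description without a test.

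RAW264.7 is a transformed mouse macrophage line, and every group was made from it. Cells received the solvent (DMSO, 0.5%) or **1**, an enoic fatty acid of cyanobacteria whose keto group stands next to its double bond (an α,β-unsaturated carbonyl), at 3.2, 10 or 32 µM for 1 h and then LPS at 1 µg/mL, and a solvent group stayed without LPS. RNA was taken after 12 h. Each of the 5 conditions (DMSO, DMSO + LPS, and 3.2, 10 and 32 µM of **1** with LPS) had 2 libraries that the labels number as biological replicates, with no word on whether these were separate cultures, so p-values measure only the spread between these libraries. No group received **1** without LPS, so the levels with **1** alone were not measured. In RNA from whole cultures, more cells expressing a gene and more RNA of the gene per cell cannot be told apart.

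LPS is bound by Toll-like receptor 4 and its co-receptors on macrophages, and the signal switches on cytokine, chemokine and interferon genes through NF-κB, AP-1 and interferon regulatory factors. The transcription factor Nrf2 is held and marked for breakdown by Keap1 until electrophiles react with cysteines of Keap1, after which Nrf2 binds antioxidant response elements and raises detoxifying and redox genes. Some genes of macrophages, such as that of the autophagy receptor p62, are known to respond to both kinds of signal.

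Library totals lay between 45966803 and 58976377 counts. All 10 macrophage markers examined (among them *Cd68*, *Csf1r* and *Lyz2*) were above 1 CPM in every library, at 14.9 to 7660 CPM. Their summed level was 12600 to 13500 CPM in DMSO, 10200 to 10300 CPM in DMSO + LPS, 9440 to 9570 CPM at 3.2 µM, 8550 to 9160 CPM at 10 µM and 7860 to 8470 CPM at 32 µM, and the part of this decline in the results below was not tested. The summed level of 12 markers of other cells was 0.723 to 1.02 CPM in the 4 libraries without **1** and 0.869 to 0.888 CPM at 32 µM. It was 21.6 CPM in replicate 1 and 1.35 CPM in replicate 2 at 10 µM, and 3.76 CPM in replicate 1 and 0.926 CPM in replicate 2 at 3.2 µM. Of these markers, the epithelial gene *Epcam* was at 9.43 CPM in replicate 1 at 10 µM, at 1.62 CPM in replicate 1 at 3.2 µM and at 0 to 0.0395 CPM elsewhere, and 8 of the 12 stayed under 1 CPM in every library. Replicate 1 at 10 µM held 65 genes above 0.5 CPM that were under 0.1 CPM in all other libraries, against 0 such genes in each other library. The 40 genes were chosen without these libraries, and for the 40 genes the main counts of the step from 3.2 to 10 µM, and each step that passed edgeR's adjusted test, are given below with and without replicate 1 at these doses. Other counts, and the values of genes outside the group, are given with these libraries only. In replicate 2 at 32 µM, *Lars2* and *Gm23935* together took 1.65% of the counts, against 0.0424% to 0.1% in the other libraries.

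The 40 genes lay on 16 chromosomes, and 39 of them were protein coding. Their L was 1.07 to 4.96 higher in DMSO + LPS than in DMSO with a median of 1.73, and 13 genes were at least 2 higher. At 32 µM their L was 0.5 to 2.55 above that of DMSO + LPS with a median of 0.72, and 11 genes were at least 1 above it. Just inside the LPS limit of 1 were *Cdcp1* (1.07), *A530064D06Rik* (1.07) and *Adm* (1.10), and just outside it were *Fcrl1* (0.97), *Igsf3* (0.94) and *Treml4* (0.93). Just inside the limit of 0.5 at 32 µM were *Rhob* (0.502), *Acsbg1* (0.513) and *Vegfa* (0.515), and just outside it were *Pvr* (0.497), *Lims2* (0.462) and *Atf3* (0.457).

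**Figure D1:**
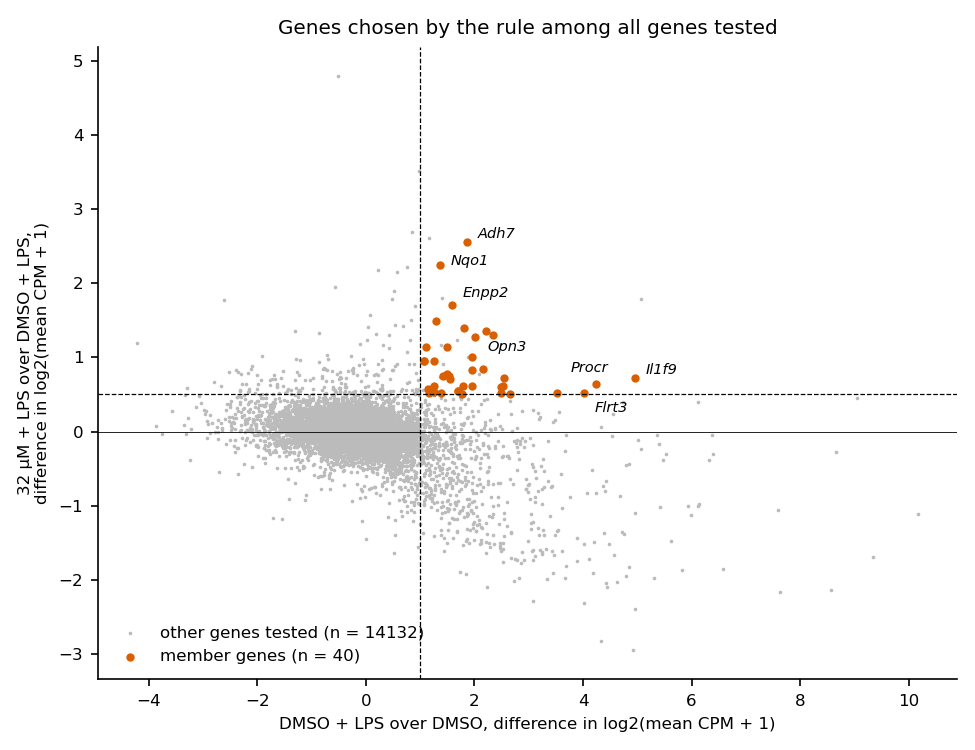
Each point is a gene tested, with the LPS difference on the x axis and the difference at 32 µM of **1** on the y axis, both in log2(mean CPM + 1), and dashed lines at the limits of 1 and 0.5. The 40 chosen genes (orange) sit in the upper right corner, where few LPS-raised genes lie, with *Adh7* (2.55) and *Nqo1* (2.25) highest at 32 µM and *Il1f9* (4.96) farthest right.

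As a check of LPS, *Nos2*, the inducible nitric oxide synthase and no member of the group, was at 0.0381 and 0 CPM in DMSO and at 203 and 195 CPM in DMSO + LPS. With **1** it was at 139 and 145 CPM at 3.2 µM, 106 and 111 CPM at 10 µM and 44.2 and 43.7 CPM at 32 µM. Its level was lower at each larger dose.

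The libraries at 10 and 3.2 µM were not used in choosing the genes. The size and direction of the step from 3.2 to 10 µM thus ask whether the genes rose with dose in independent samples. The p-values of the fits over all conditions are not fully independent of the choice. These fits take the spread between replicates from all conditions, and the rule favoured genes with little spread in the libraries it read. Only the fit of the libraries at 3.2 and 10 µM alone, given below, leaves those libraries out. All 40 genes had a higher fitted level at 10 µM than at 3.2 µM, against 52.5% of the 14172 genes tested. The step was 0.13 to 1.32 on the log2 scale with a median of 0.40, against a median of 0.007 over all genes tested. Of the 40 genes, 8 lay above the 95th percentile of all genes (0.63). That percentile includes genes found mainly in replicate 1 at 10 µM, such as *Cdh1* (step 3.00), and is not given without this library. In 39 of the 40 genes both 10 µM libraries lay above both 3.2 µM libraries, which held for 21.2% of the genes tested, and the exception was *Slpi*. By edgeR's quasi-likelihood test over all genes, 5 of the 40 genes were called higher (an adjusted p below 0.05 and a change of 1.5-fold or more), namely *Adh7*, *Nqo1*, *Serpinb9b*, *Enpp2* and *Tarm1*, against 0.0706% of all genes tested. No gene of the group was called lower by edgeR or by DESeq2's Wald test, and 0 had a lower level with an unadjusted p below 0.05.

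At any fold, 0.254% of the genes tested were higher with an adjusted p below 0.05 in edgeR's main fit, a share that is not given for the other fits below. Of the 40 genes, 9 met this criterion in the main fit, which added *Layn*, *Jag1*, *Clcf1* and *Il1f9*. This count was 1 without either library at 3.2 µM, 0 in a fit of the 4 libraries alone and 19 by DESeq2's Wald test, which added *Abcc1*, *Ampd3*, *Blvrb*, *Mir22hg*, *Opn3*, *Plpp3*, *Procr*, *Serpinb1b*, *Serpinb9* and *Sqstm1* with adjusted p-values of 2.29e-05 to 0.0295. In the fit without replicate 1 at 10 and 3.2 µM, the steps of the 4 genes were 0.42 for *Layn* (adjusted p = 0.436), 0.60 for *Jag1* (0.251), 0.47 for *Clcf1* (0.606) and 0.50 for *Il1f9* (0.513). An unadjusted p below 0.05 was reached by 28 of the 40 genes, against 3.97% of the genes tested. Of the 14172 genes tested, 10 were called higher in this step (27 without replicate 2 at 10 µM and 1 without either library at 3.2 µM), and the other 5 were *Cxcl3*, *Gsta1*, *Pcx*, *Plin2* and *Prl2c2*. *Cxcl3* passed the levels of the rule but was set aside by name, and the LPS difference of the other 4 was 0.82 or less.

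Without replicate 1 at 10 µM and replicate 1 at 3.2 µM, 39 of the 40 genes were still higher at 10 µM, with 49.5% of the genes tested higher in that fit. Their median step was then 0.33 and their range −0.25 to 1.26, with *Slpi* at the lower end. An unadjusted p below 0.05 was reached by 22 of the 40 genes, against 2.62% of the genes tested, and only *Adh7* was still called (edgeR adjusted p = 0.0333). Leaving out replicate 1 or replicate 2 at 3.2 µM alone also left *Adh7* as the only call, and a fit of the 4 libraries alone called 0 of the 40 genes and 0 of all genes. In that fit 29 of the 40 genes had a higher level with an unadjusted p below 0.05, against 336 of 13468 genes.

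**Figure D2:**
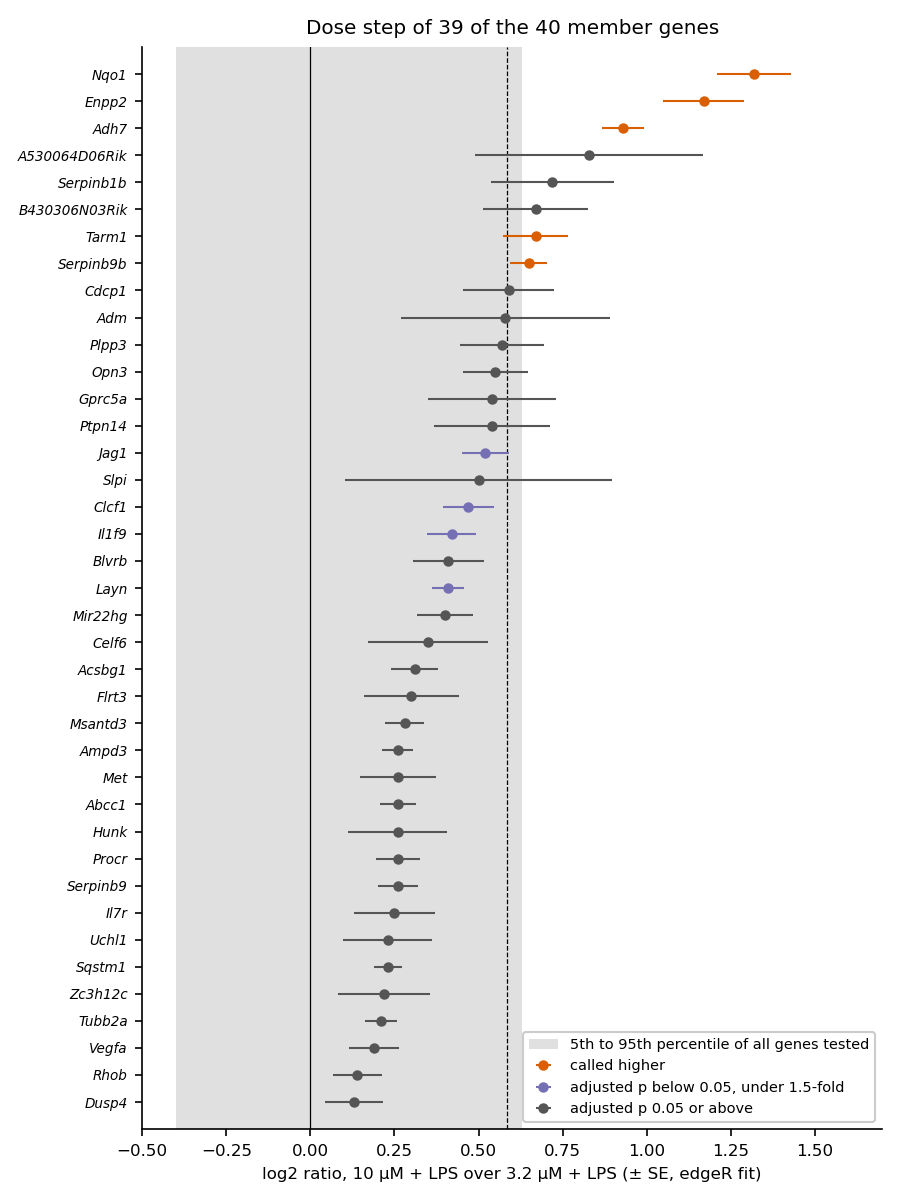
Points show the log2 ratio of 10 µM to 3.2 µM for 39 of the 40 genes and bars the SE of the edgeR fit, with the dashed line at 1.5-fold. The 5th to 95th percentile of all genes tested is shaded, and these include genes found mainly in replicate 1 at 10 µM. All 39 points lie right of 0, 5 are called (orange), and *Slpi*, *A530064D06Rik* and *Adm* have the widest bars.

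*Adh7*, a class IV alcohol dehydrogenase that oxidizes retinol and ethanol (chr3:138217760-138233382 on GRCm38), had the smallest adjusted p of the group in this step. Its level was 4.97 and 4.9 CPM in DMSO, 20.9 and 20.4 CPM in DMSO + LPS, 27.8 and 29.1 CPM at 3.2 µM, 51.4 and 58.2 CPM at 10 µM, and 128 and 125 CPM at 32 µM. The 5 conditions did not overlap, and the level was higher at each dose. The ratio of 10 to 3.2 µM was 0.93 on the log2 scale (SE 0.0617, edgeR adjusted p = 0.00106) and 0.97 (SE 0.0746) without the replicate 1 libraries.

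*Nqo1*, the NAD(P)H quinone reductase used as the classical readout of Nrf2 (chr8:107388225-107403206), was at 0.343 and 0.415 CPM in DMSO and 2.58 and 2.5 CPM in DMSO + LPS. With **1** it was at 3.14 and 3.24 CPM at 3.2 µM, 8.7 and 7.48 CPM at 10 µM and 16.2 and 15.5 CPM at 32 µM. It had the largest dose step of the 40 genes in all 10 libraries, 1.32 on the log2 scale (SE 0.11, edgeR adjusted p = 0.00311), with no overlap between doses. Without the replicate 1 libraries the step was 1.18 (SE 0.152, adjusted p = 0.199).

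*Enpp2* encodes autotaxin, the secreted enzyme that makes lysophosphatidic acid (chr15:54838901-54952892). It had 0 counts in both DMSO libraries, was at 2.14 and 1.9 CPM in DMSO + LPS, and was thus at least 32.1-fold higher in each DMSO + LPS library when the DMSO level is set at 3 counts per library. With **1** it was at 2.93 and 2.72 CPM at 3.2 µM, 6.27 and 6.64 CPM at 10 µM and 9.37 and 8.33 CPM at 32 µM. The 10 µM level was 1.17 above that of 3.2 µM on the log2 scale (SE 0.12, edgeR adjusted p = 0.0114), and 1.26 above it (SE 0.196, adjusted p = 0.393) without the replicate 1 libraries.

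*Serpinb9b*, an intracellular clade B serpin (chr13:33027416-33041884), was at 10.8 and 11.8 CPM in DMSO, 41.6 and 41.9 CPM in DMSO + LPS, 47.4 and 46.9 CPM at 3.2 µM, 72.9 and 77.1 CPM at 10 µM, and 111 and 112 CPM at 32 µM. The replicates lay close together and the conditions apart. Its step from 3.2 to 10 µM was 0.65 on the log2 scale (SE 0.0549, edgeR adjusted p = 0.00311), and 0.69 (SE 0.0875, adjusted p = 0.192) without the replicate 1 libraries.

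*Tarm1*, an activating receptor of myeloid cells with immunoglobulin domains (chr7:3486500-3502624), was near 0 in DMSO (0.0761 and 0.079 CPM) and at 4.6 and 4.32 CPM in DMSO + LPS. With **1** it was at 5.09 and 4.73 CPM at 3.2 µM, 7.8 and 8.05 CPM at 10 µM and 13.3 and 11.4 CPM at 32 µM. The step from 3.2 to 10 µM was 0.67 on the log2 scale (SE 0.097, edgeR adjusted p = 0.0278). Its call was lost without any 1 of the 4 libraries at 3.2 and 10 µM (edgeR adjusted p 0.0881 to 0.314) and without both replicate 1 libraries (step 0.74, adjusted p = 0.498).

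**Figure D3:**
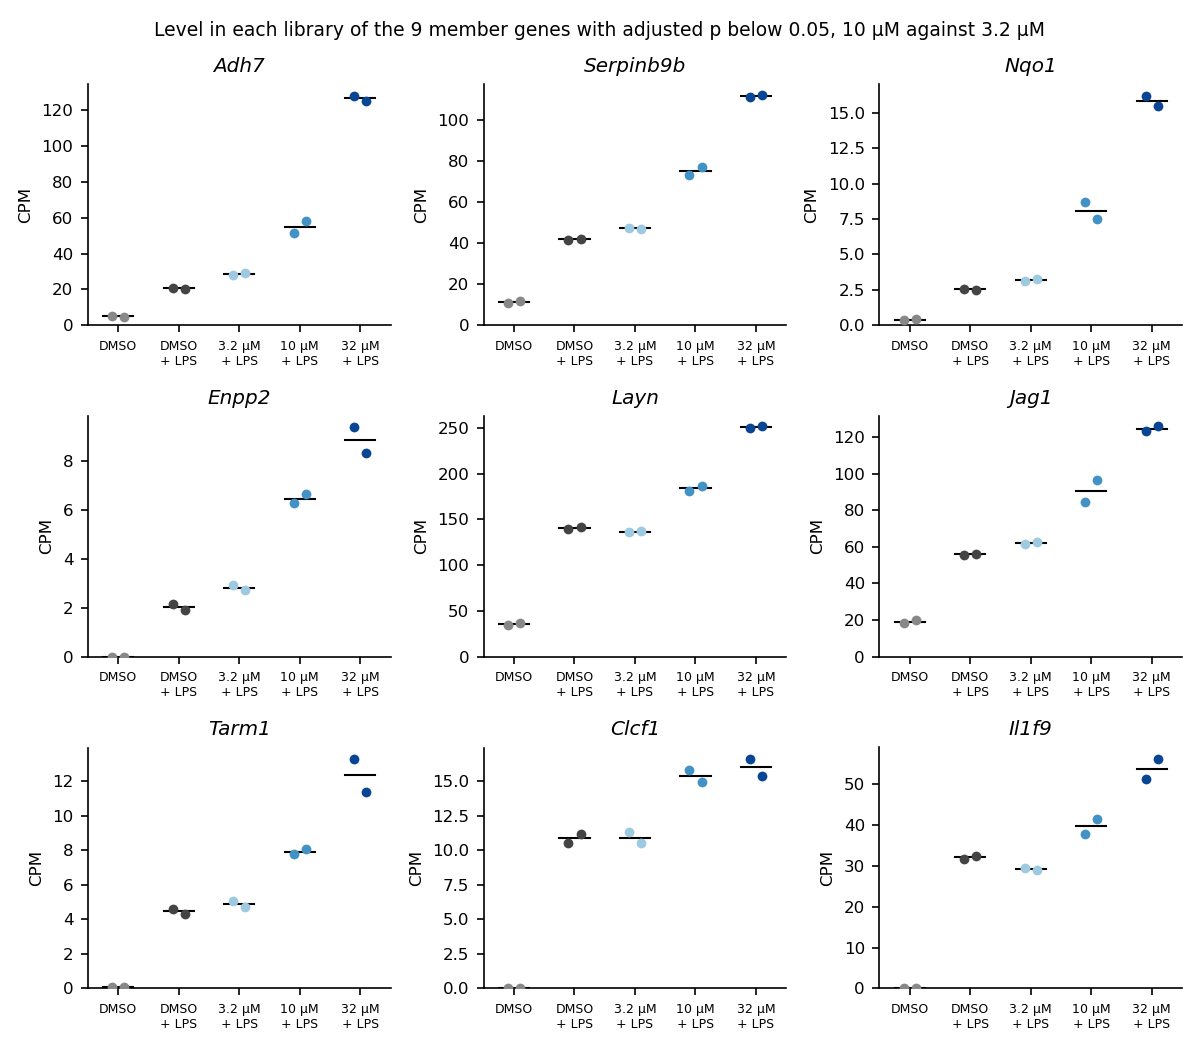
The 9 genes with an adjusted p below 0.05 for 10 µM against 3.2 µM are plotted by condition, with CPM on y axes that start at 0, a point for each library and a line at the mean of the 2 libraries. In each panel both 10 µM points lie above both 3.2 µM points, the comparison by which the panels were picked. DMSO is lowest in each, and the rule required it to lie below DMSO + LPS.

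RefSeq promoter windows on GRCm38.p6, which run from 250 bases before to 50 bases after a gene's start, were found for 34 of the 40 genes (42 windows). The windows of 4 of the 5 called genes are shown because these genes rose together with dose (*Enpp2*, like *Abcc1*, *Clcf1*, *Dusp4* and *Gprc5a*, had no entry). Capitals mark matches, on either strand, to the antioxidant response element core (TGACNNNGC) or the AP-1 motif (TGANTCA).
Adh7: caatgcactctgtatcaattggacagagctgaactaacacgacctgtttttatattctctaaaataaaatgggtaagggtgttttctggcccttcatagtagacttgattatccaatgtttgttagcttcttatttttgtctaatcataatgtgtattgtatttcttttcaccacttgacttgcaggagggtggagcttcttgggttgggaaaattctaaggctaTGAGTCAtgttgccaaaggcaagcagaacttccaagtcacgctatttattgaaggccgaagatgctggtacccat
Nqo1: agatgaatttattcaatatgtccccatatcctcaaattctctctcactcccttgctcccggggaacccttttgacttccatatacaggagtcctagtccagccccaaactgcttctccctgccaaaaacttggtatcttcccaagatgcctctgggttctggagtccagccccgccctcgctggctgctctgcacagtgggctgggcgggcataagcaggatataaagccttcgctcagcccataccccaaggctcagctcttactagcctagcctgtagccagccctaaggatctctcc
Serpinb9b: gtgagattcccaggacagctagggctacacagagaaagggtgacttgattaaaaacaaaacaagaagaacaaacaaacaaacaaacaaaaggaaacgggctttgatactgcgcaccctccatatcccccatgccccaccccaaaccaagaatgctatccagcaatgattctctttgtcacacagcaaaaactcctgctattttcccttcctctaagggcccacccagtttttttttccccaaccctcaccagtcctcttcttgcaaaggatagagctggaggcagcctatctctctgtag
Tarm1: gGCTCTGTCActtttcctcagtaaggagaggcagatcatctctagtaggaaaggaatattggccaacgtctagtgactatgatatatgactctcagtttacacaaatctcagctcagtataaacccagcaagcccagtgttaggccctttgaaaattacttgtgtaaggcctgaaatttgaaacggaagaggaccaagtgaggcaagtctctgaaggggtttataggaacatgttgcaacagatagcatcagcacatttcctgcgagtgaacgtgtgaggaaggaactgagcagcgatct
These are chr3:138217523-138217822 (plus strand), chr8:107403156-107403455 (minus), chr13:33027164-33027463 (plus) and chr7:3502575-3502874 (minus). The *Adh7* window held an AP-1 match that begins 25 bases before the start, and the *Tarm1* window held an antioxidant response element core on its other strand 249 bases before the start. Neither motif was found in the *Nqo1* or *Serpinb9b* window. Bases beyond the windows were not searched, so a motif farther from the start of a gene would be missed.

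Over the 42 windows, the antioxidant response element core was found in 5 (11.9%), those of *Adm*, *Flrt3*, *Met*, *Procr* and *Tarm1*, and in 12.4% of all 32851 windows. The AP-1 motif was found in 4 windows (9.52%), those of *Adh7*, *Ampd3*, *Met* and *Procr*, and in 7.81% of all windows. No window of the group held a match to the κB motif or to the C/EBP-ATF letters TGATGCAA, which occurred in 1.47% and 0.895% of all windows. The AP-1 letters and the antioxidant letters both begin with TGA and can overlap.

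Among the ligands, *Jag1*, which encodes a membrane-bound ligand of Notch receptors, was at 18.4 and 20 CPM in DMSO, 55.5 and 56.2 CPM in DMSO + LPS, 61.4 and 62.6 CPM at 3.2 µM, 84.3 and 96.5 CPM at 10 µM, and 123 and 126 CPM at 32 µM. Its step from 3.2 to 10 µM was 0.52 on the log2 scale (SE 0.0692, edgeR adjusted p = 0.0188), under the 1.5-fold limit. *Il1f9*, the interleukin-36γ gene, was at 0.0761 and 0.0593 CPM in DMSO, 31.8 and 32.5 CPM in DMSO + LPS, 29.5 and 28.9 CPM at 3.2 µM, 37.8 and 41.5 CPM at 10 µM, and 51.4 and 56.2 CPM at 32 µM. Both of its 3.2 µM libraries were thus below DMSO + LPS and those of the 2 larger doses above it, with a step of 0.42 between 3.2 and 10 µM (edgeR adjusted p = 0.0494).

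*Clcf1*, a cytokine of the interleukin-6 family, reached 10.5 and 11.2 CPM with LPS and was at 11.3 and 10.5 CPM at 3.2 µM, 15.8 and 14.9 CPM at 10 µM and 16.6 and 15.4 CPM at 32 µM. Its level at 3.2 µM therefore overlapped that of DMSO + LPS, and those at 10 and 32 µM overlapped each other (step from 3.2 to 10 µM 0.47, edgeR adjusted p = 0.0364). *Vegfa*, the angiogenic growth factor, was at 2.86 and 3.18 CPM in DMSO, 9.39 and 9.65 CPM in DMSO + LPS, 10 and 10.5 CPM at 3.2 µM, 11.6 and 12 CPM at 10 µM, and 14 and 14.1 CPM at 32 µM. *Adm*, which encodes the vasodilator peptide adrenomedullin, was at 0.476 and 0.158 CPM in DMSO, 1.95 and 1.69 CPM in DMSO + LPS, 2 and 1.89 CPM at 3.2 µM, 2.8 and 3.09 CPM at 10 µM, and 5.23 and 5.17 CPM at 32 µM. The steps from 3.2 to 10 µM of *Vegfa* (0.19, adjusted p = 0.528) and *Adm* (0.58, adjusted p = 0.73) did not pass edgeR's test.

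Of the receptors and surface proteins, *Layn*, the hyaluronan receptor layilin, was at 34.4 and 37.1 CPM in DMSO, 140 and 142 CPM in DMSO + LPS, 136 and 137 CPM at 3.2 µM, 181 and 187 CPM at 10 µM, and 250 and 252 CPM at 32 µM. As with *Il1f9*, both 3.2 µM libraries lay below both DMSO + LPS libraries, while 10 and 32 µM lay above them (step from 3.2 to 10 µM 0.41, SE 0.0482, edgeR adjusted p = 0.0117). *Procr*, the protein C receptor, was at 18.2 and 18.1 CPM in DMSO, 357 and 363 CPM in DMSO + LPS, 381 and 384 CPM at 3.2 µM, 492 and 438 CPM at 10 µM, and 588 and 533 CPM at 32 µM. *Il7r*, the interleukin-7 receptor chain, was at 8.87 and 9.74 CPM in DMSO, 23.8 and 21.1 CPM in DMSO + LPS, 25.4 and 24.5 CPM at 3.2 µM, 26.9 and 33.2 CPM at 10 µM, and 31.4 and 35.9 CPM at 32 µM. *Procr* had no overlap between the doses, whereas the 10 and 32 µM libraries of *Il7r* overlapped, and neither step from 3.2 to 10 µM passed edgeR's test (0.26, adjusted p = 0.17, and 0.25, adjusted p = 0.667).

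*Opn3*, a gene of the opsin family, was at 5.71 and 7.13 CPM in DMSO, 27.9 and 29.8 CPM in DMSO + LPS, 30 and 29.6 CPM at 3.2 µM, 46.6 and 42 CPM at 10 µM, and 73.2 and 69.3 CPM at 32 µM. Its step of 0.55 had an edgeR adjusted p of 0.0543, and it shares exonic sequence on the same strand with *Chml*, which reached 61.2 CPM. *Flrt3*, an adhesion protein with leucine-rich repeats, was near 0 in DMSO (0.0952 and 0.277 CPM), at 19 and 17.5 CPM in DMSO + LPS, 21.1 and 21.3 CPM at 3.2 µM, 25.3 and 27.7 CPM at 10 µM, and 25.2 and 27.8 CPM at 32 µM. *Flrt3* thus had nearly the same range at 10 and 32 µM, and its step from 3.2 to 10 µM was 0.30 (edgeR adjusted p = 0.652). *Cdcp1*, a transmembrane substrate of Src kinases, was at 1.14 and 1.38 CPM in DMSO, 4.09 and 3.41 CPM in DMSO + LPS, 3.87 and 3.86 CPM at 3.2 µM, 5.58 and 6.18 CPM at 10 µM, and 8.76 and 7.68 CPM at 32 µM. The steps from 3.2 to 10 µM of *Cdcp1* (0.59), *Gprc5a*, an orphan receptor induced by retinoic acid (0.54), and *Met*, the receptor of hepatocyte growth factor (0.26), did not pass edgeR's test (adjusted p 0.133, 0.427 and 0.611).

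Besides *Adh7*, *Nqo1* and *Enpp2*, the enzymes included *Blvrb*, a biliverdin reductase of heme breakdown, at 60.7 and 55.9 CPM in DMSO, 136 and 146 CPM in DMSO + LPS, 160 and 152 CPM at 3.2 µM, 230 and 189 CPM at 10 µM, and 295 and 252 CPM at 32 µM. *Ampd3*, which deaminates AMP, was at 28.2 and 29.3 CPM in DMSO, 105 and 99.4 CPM in DMSO + LPS, 100 and 101 CPM at 3.2 µM, 121 and 124 CPM at 10 µM, and 157 and 158 CPM at 32 µM. *Acsbg1*, an acyl-CoA synthetase, was at 1.6 and 1.82 CPM in DMSO, 16.7 and 15.4 CPM in DMSO + LPS, 16.8 CPM in both libraries at 3.2 µM, 21.3 and 20.9 CPM at 10 µM, and 23.8 and 22.9 CPM at 32 µM. In each of these genes the 3 doses did not overlap, but none of the steps from 3.2 to 10 µM passed edgeR's adjusted test, with 0.41 for *Blvrb* (adjusted p = 0.203), 0.26 for *Ampd3* (0.0522) and 0.31 for *Acsbg1* (0.125). *Ampd3* overlaps *Rnf141* on the other strand, which reached 36 CPM. *Plpp3*, a phosphatase that breaks down lysophosphatidic acid, was at 0.59 and 0.83 CPM in DMSO, 6.93 and 6.92 CPM in DMSO + LPS, 8.32 and 8.51 CPM at 3.2 µM, 11.6 and 13.7 CPM at 10 µM, and 18.4 and 20.1 CPM at 32 µM. It had no overlap between conditions and a step of 0.57 (adjusted p = 0.122), while that of *Uchl1*, a deubiquitinating hydrolase, was 0.23 (adjusted p = 0.758).

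The protease inhibitors numbered 4. *Serpinb9*, the inhibitor of granzyme B, was at 21.4 and 23.1 CPM in DMSO, 132 and 127 CPM in DMSO + LPS, 139 and 140 CPM at 3.2 µM, 163 and 175 CPM at 10 µM, and 182 and 190 CPM at 32 µM. *Serpinb1b*, another clade B serpin, was at 1.26 and 0.83 CPM in DMSO, 3.83 and 4.19 CPM in DMSO + LPS, 5.53 and 4.17 CPM at 3.2 µM, 8.01 and 8.2 CPM at 10 µM, and 12.7 and 13.4 CPM at 32 µM. Both 10 µM libraries lay above both 3.2 µM libraries in each gene, with a step of 0.26 for *Serpinb9* (edgeR adjusted p = 0.125) and 0.72 for *Serpinb1b* (0.188 by edgeR, and 0.0295 by DESeq2's Wald test). Without the replicate 1 libraries at 3.2 and 10 µM the step of *Serpinb1b* was 0.95 (edgeR adjusted p = 0.643). *Serpinb9*, *Serpinb9b* and *Serpinb1b* lie close together on chromosome 13, with 9.46 kb between *Serpinb9* and *Serpinb9b* and 36.7 kb between *Serpinb9b* and *Serpinb1b*, and as related copies they may share reads, so their values are uncertain.

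The inhibitor *Slpi*, a secreted inhibitor of neutrophil elastase, was at 0.133 and 0.0395 CPM in DMSO and 3.14 and 3.24 CPM in DMSO + LPS. It was at 3.81 and 4.17 CPM at 3.2 µM, 7.82 and 3.57 CPM at 10 µM and 6.88 and 3.97 CPM at 32 µM, so replicate 1 was higher than replicate 2 at both larger doses. The step from 3.2 to 10 µM was 0.50 (SE 0.397, edgeR adjusted p = 0.874), and −0.19 without replicate 1 at 10 µM, the library with the markers of other cells.

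*Sqstm1*, which encodes the autophagy receptor p62 that can bind Keap1, was at 1350 and 1300 CPM in DMSO, 4240 and 4340 CPM in DMSO + LPS, 4450 CPM in both libraries at 3.2 µM, 5420 and 5170 CPM at 10 µM, and 6480 and 6020 CPM at 32 µM. *Abcc1*, an exporter of glutathione conjugates, had a mean of 259 CPM in DMSO and was at 599 and 558 CPM in DMSO + LPS, 551 and 572 CPM at 3.2 µM, 658 and 708 CPM at 10 µM, and 833 and 821 CPM at 32 µM. The doses of **1** did not overlap in either gene, and at 3.2 µM *Abcc1* was within the range of DMSO + LPS or below it. Their steps from 3.2 to 10 µM, 0.23 and 0.26, had edgeR adjusted p-values of 0.0557 and 0.0875.

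Among the genes of signaling and of the cytoskeleton were the 2 smallest steps of the group. *Dusp4*, a phosphatase of MAP kinases, was at 83.5 and 96.8 CPM in DMSO, 219 and 216 CPM in DMSO + LPS, 236 and 241 CPM at 3.2 µM, 247 and 281 CPM at 10 µM, and 306 and 327 CPM at 32 µM. *Rhob*, a small GTPase, was at 27.6 and 32 CPM in DMSO, 101 and 106 CPM in DMSO + LPS, 108 CPM in both libraries at 3.2 µM, 118 and 123 CPM at 10 µM, and 143 and 151 CPM at 32 µM. Neither gene overlapped between doses, yet the steps from 3.2 to 10 µM were 0.13 and 0.14 with edgeR adjusted p-values of 0.836 and 0.73.

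*Tubb2a*, a β-tubulin with closely related copies, was at 21.8 and 22.9 CPM in DMSO, 55 and 54.9 CPM in DMSO + LPS, 54.1 and 53.9 CPM at 3.2 µM, 64.4 and 61.8 CPM at 10 µM, and 86 and 83.8 CPM at 32 µM. At 3.2 µM it was slightly under DMSO + LPS and then higher at each dose (step 0.21, edgeR adjusted p = 0.129). The steps of the phosphatase gene *Ptpn14* and the kinase gene *Hunk* were 0.54 and 0.26 (adjusted p 0.351 and 0.753).

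Of the genes linked to RNA, *Zc3h12c*, a CCCH zinc finger gene of the regnase family, was at 40.3 and 48.8 CPM in DMSO, 263 and 249 CPM in DMSO + LPS, 275 and 280 CPM at 3.2 µM, 284 and 369 CPM at 10 µM, and 362 and 416 CPM at 32 µM. Its 10 µM libraries differed more than its 3.2 µM libraries and overlapped those at 32 µM (step 0.22, edgeR adjusted p = 0.806). *Celf6*, an RNA-binding protein gene, had a step of 0.35 (adjusted p = 0.694).

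*Mir22hg*, the noncoding host of microRNA 22, was at 9.96 and 10.4 CPM in DMSO, 33 and 37.6 CPM in DMSO + LPS, 30.2 and 29.1 CPM at 3.2 µM, 37 and 42.1 CPM at 10 µM, and 51.2 and 52.6 CPM at 32 µM. Its step was 0.40 (edgeR adjusted p = 0.101). At 3.2 µM it was the farthest of the 40 genes under DMSO + LPS, at −0.24 on the scale of L, and it was the only one of the 40 whose 10 µM libraries were not both above both DMSO + LPS libraries. The hairpin lies in an exon of the host at chr11:75463716-75463810 (GRCm38.p6, plus strand), and its mature forms per RefSeq, with the seed (bases 2 to 8) in capitals, are shown because the host is the sole noncoding gene of the group.
mmu-miR-22-5p: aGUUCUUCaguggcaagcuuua
mmu-miR-22-3p: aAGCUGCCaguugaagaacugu
The seeds of the 2 arms differ, and the mature forms were not measured in these libraries. *Mir22hg* also shares exonic sequence with *Tlcd2* on the same strand, which reached 8.82 CPM.

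*Msantd3*, a gene with a DNA-binding-like domain, was at 5.27 and 5.06 CPM in DMSO, 16.4 and 17.5 CPM in DMSO + LPS, 18.3 and 18.6 CPM at 3.2 µM, 22.2 and 23.2 CPM at 10 µM, and 29.7 and 28.5 CPM at 32 µM (step 0.28, edgeR adjusted p = 0.0918). *A530064D06Rik* and *B430306N03Rik*, a pair of protein coding genes 149 kb apart on chromosome 17, had steps of 0.83 and 0.67 (adjusted p 0.557 and 0.137). *A530064D06Rik* was at 0 and 0.0198 CPM in DMSO, 1.03 and 1.22 CPM in DMSO + LPS, 0.894 and 1.04 CPM at 3.2 µM, 2.22 and 1.26 CPM at 10 µM, and 3.43 and 2.82 CPM at 32 µM. Its replicates at 10 µM were far apart, and the step was 0.25 without the replicate 1 libraries.

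The other 2 doses were compared with DMSO + LPS as values only, since the rule used those libraries. At 10 µM the mean of all 40 genes was above that of DMSO + LPS, by 0.16 to 1.36 on the scale of L with a median of 0.40. In 39 of the 40 genes both 10 µM libraries lay above both DMSO + LPS libraries, which held for 19.8% of the genes tested. At 3.2 µM the difference from DMSO + LPS was −0.24 to 0.44 with a median of 0.10, and edgeR's fitted median over all genes tested was 0.004. By their means 32 genes were above DMSO + LPS and 8 below, and the share of all genes above is not given. Both 3.2 µM libraries lay above both DMSO + LPS libraries in 22 genes, against 22.5% of the genes tested. *Adh7* was 0.44 above DMSO + LPS at 3.2 µM, the upper end of that range. The means increased from 3.2 to 10 to 32 µM in 38 of the 40 genes, and the exceptions were *Flrt3* and *Slpi*. The rule chose genes with high 32 µM libraries, which favours this order between 10 and 32 µM, and its share over all genes tested is not given.

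**Figure D4:**
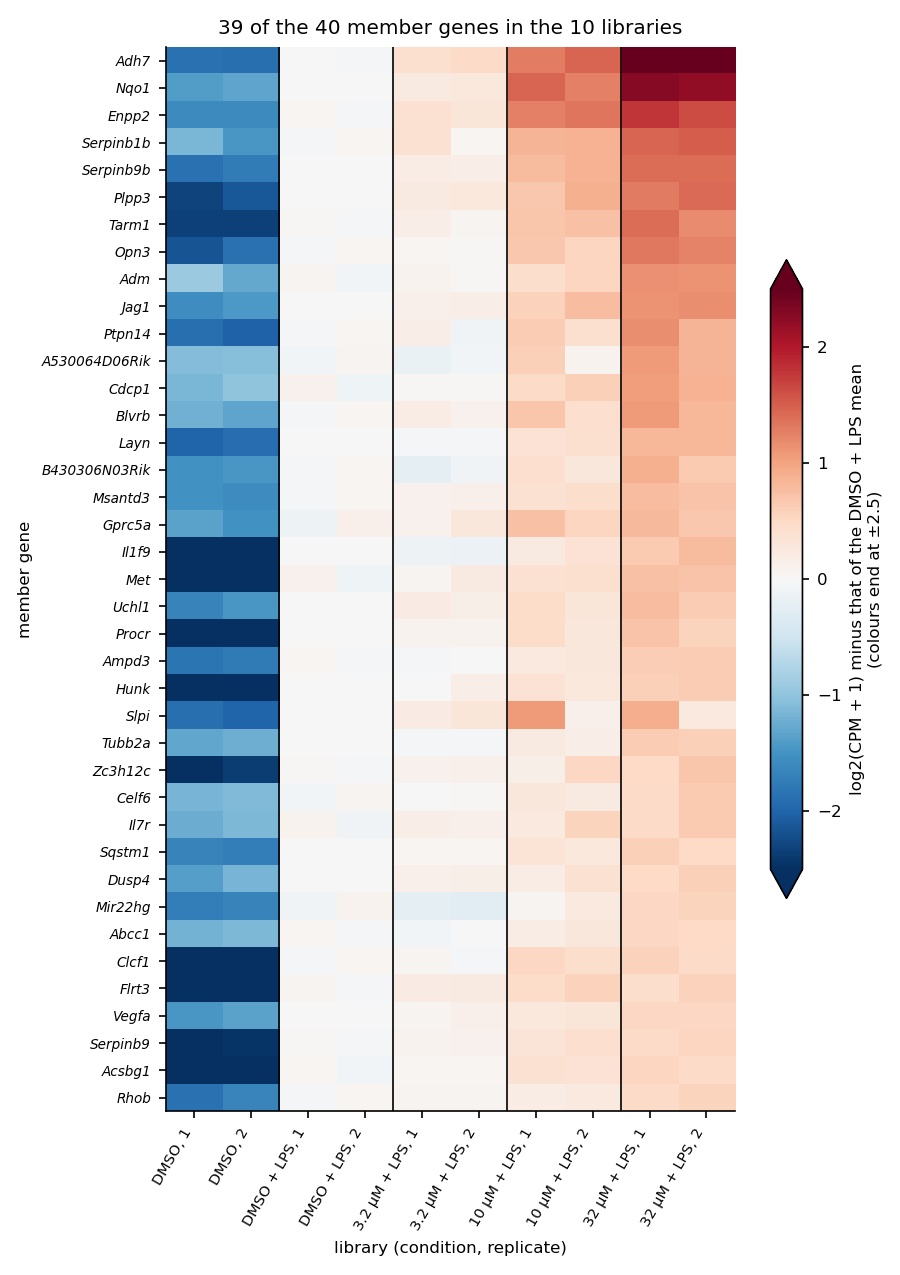
Rows are 39 of the 40 genes, ordered by their difference at 32 µM, and columns the 10 libraries, with colour for log2(CPM + 1) minus that of the DMSO + LPS mean (blue lower, red higher, colours ending at 2.5 on either side). The 3.2 µM columns are close to white for most genes (−0.24 to 0.44 by mean), the 10 µM columns are red for nearly all, and *Slpi* differs most between replicates at 10 µM.

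The genes differed in the size of the dose step. The 11 genes raised by at least 1 at 32 µM had steps from 3.2 to 10 µM of 0.52 to 1.32 with a median of 0.65, and the other 29 had steps of 0.13 to 0.83 with a median of 0.28. Over the 40 genes, the rank correlation of the 2 differences was 0.79 (Spearman's rho), against 0.43 over all genes tested, a description across genes that share the same libraries within each difference. The 40 genes were chosen by their difference at 32 µM, so this is no independent relation. The rank correlation of the dose step with the LPS difference was −0.12, and *Il1f9* and *Procr*, for example, had the largest LPS differences of the group (4.96 and 4.24) and dose steps of 0.42 and 0.26.

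**Figure D5:**
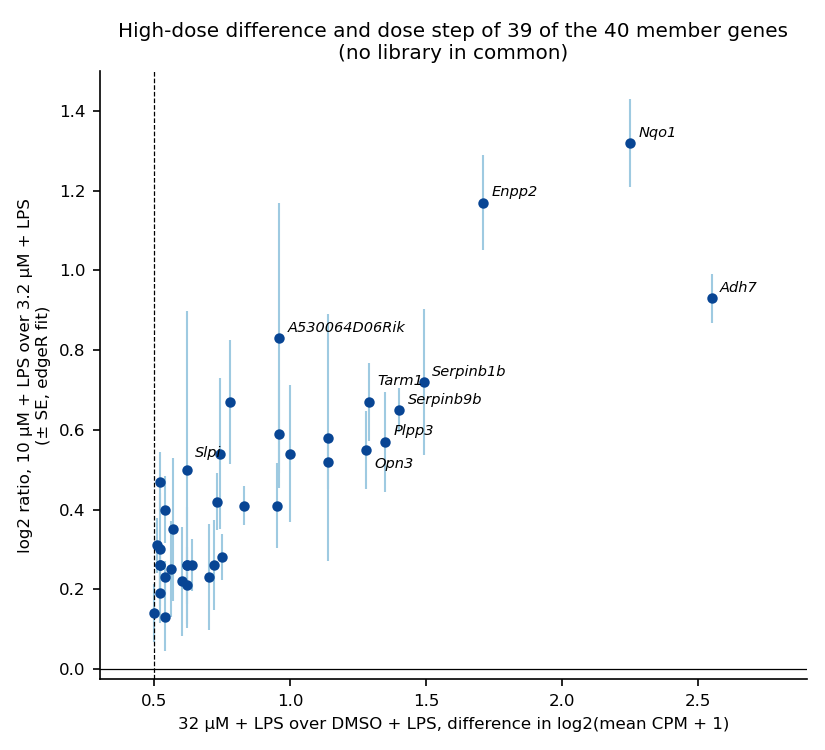
Points are 39 of the 40 genes, each placed by its difference between 32 µM and DMSO + LPS in log2(mean CPM + 1) on the x axis and its log2 ratio of 10 to 3.2 µM (± SE of the edgeR fit) on the y axis, with the dashed line at the limit of 0.5. *Nqo1*, *Enpp2* and *Adh7* stand apart at the upper right (1.32, 1.17 and 0.93 on the y axis), and the other genes lie below them.

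Lists of pathway genes were drawn up from general knowledge. Of 35 Nrf2 target genes, 4 were members (*Nqo1*, *Abcc1*, *Sqstm1* and *Blvrb*), and another 4 (*Txnrd1*, *Prdx1*, *Akr1b8* and *Srxn1*) met the levels of the rule but were set aside by name, so the count of members was fixed in part by that choice. In the step from 3.2 to 10 µM all 32 tested genes of that list were higher, with a median of 0.25, and edgeR called 1 higher (*Nqo1*) and 0 lower. With an unadjusted p below 0.05, 21 were higher and 0 lower, and DESeq2 called 1 higher. *Vegfa* stood in the lists of ATF4 and of hypoxia-inducible factor (HIF) target genes and *Adm* in the latter, and edgeR called 0 of the 28 ATF4 and 0 of the 28 HIF genes tested in either direction between 3.2 and 10 µM (medians −0.04 and 0.01). Unadjusted p-values below 0.05 were found for 2 higher and 3 lower genes and for 1 higher and 1 lower gene in these lists, and DESeq2 called 0 in both.

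None of the 40 genes was in the lists of NF-κB target, interferon-stimulated, peroxisome proliferator-activated receptor (PPAR) target or heat-shock genes, though *Cxcl3* of the NF-κB list met the levels of the rule and was set aside by name. Of 41 NF-κB target genes tested, 1 was called higher (*Cxcl3*) and 6 lower between 3.2 and 10 µM, with a median of −0.20 (2 higher and 18 lower at an unadjusted p below 0.05, and 1 higher and 7 lower by DESeq2), and 0.183% of all genes were called lower in this step. Of 35 interferon-stimulated genes, 6 were called lower and 0 higher by edgeR, with a median of −0.39, and DESeq2 called 7 lower and 0 higher. By edgeR 31 of them were lower and 0 higher at an unadjusted p below 0.05. Over all 14172 genes tested by edgeR, 624 were lower and 563 higher at an unadjusted p below 0.05. The PPAR list had 1 edgeR call of 17 genes (*Plin2*, higher), with 1 higher and 1 lower by DESeq2, and edgeR and DESeq2 called 0 of the 17 heat-shock genes (median −0.01, with 1 higher and 1 lower at an unadjusted p below 0.05).

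The exonic length of the 40 genes had a median of 3425 bases, against 3920 bases over the 14091 genes tested with a length. Other pairs of members within 1 Mb were *Adm* and *Ampd3* (138 kb apart on chromosome 7) and *Serpinb1b* and *Tubb2a* (980 kb apart on chromosome 13). The ratio of replicate 1 to replicate 2 at 10 µM was 0.769 to 2.19 over the 40 genes, with 17 genes higher in replicate 1 and 23 in replicate 2. In replicate 2 at 10 µM alone, where the markers of other cells summed to 1.35 CPM, 39 of the 40 genes were above both 3.2 µM libraries, as were 46.8% of all genes tested.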

How the data were processed

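Poly(A) RNA of RAW264.7 cells was sequenced as paired reads with a directional kit, for 5 conditions and 2 libraries of each. The authors deposited 1 table of whole-number counts per gene. The submitters' processing notes name Trimmomatic, FastQC, STAR, DESeq2 and the build mm10, and the counting tool, annotation and use of strand were not given in the sources used here. Reads shared by overlapping or related genes may therefore be split differently from their true origin.

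The 40 genes were found from CPM on library totals. The counts were fitted with edgeR 4.0.16 (R 4.3.3; filterByExpr with a minimum count of 10, TMM scaling, 1 mean per condition over all 10 libraries, 5 residual degrees of freedom, quasi-likelihood F test), with Benjamini-Hochberg adjustment over 14172 genes. DESeq2 1.42.0 (Wald test), other scalings and filters, a replicate block and leaving out each library at 3.2 and 10 µM were alternatives for the dose step. Each SE from edgeR is the one implied by the quasi-likelihood F statistic, the absolute log2 ratio divided by the square root of F. The smallest library had 45966803 counts, in which 5 CPM is 230 counts with a counting error of 6.6%. An exact permutation test of 2 against 2 libraries cannot go below p = 0.333, so none was used. Scaling by library size alone moved the median of all genes for LPS by −0.20 on the log2 scale.

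The members, the gene lists and the tests were chosen with earlier results of these data known. A rule named 28 genes for full values (the 20 with the highest mean CPM over all libraries, the 5 with the highest and the 5 with the lowest ratio of 10 to 3.2 µM, those in a pathway list and the 3 just inside each limit of the selection; *Nqo1* and *Nos2* served as checks), and the other 12, *Tarm1* and *Clcf1* among them, were chosen after their values were seen. Of these, 1 gene is not reported by name here. The 2 settings without replicate 1 at both doses and without replicate 2 at 32 µM were added after seeing the data. Sequences are from RefSeq (GRCm38.p6), and gene positions from the GENCODE M21 annotation of GRCm38.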

Additional observations from a re-analysis of the deposited data

Results flagged for a closer look

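The summed level of the 12 markers of other cells, which enter no comparison above, was 21.6 CPM in replicate 1 at 10 µM and 3.76 CPM in replicate 1 at 3.2 µM, above the 0.723 to 1.02 CPM of the libraries without **1**. In replicate 1 at 10 µM, *Cdh1* was at 4.18 CPM and *Col3a1* at 3.35 CPM, and in replicate 1 at 3.2 µM at 0.52 and 0.499 CPM, while *Cd3e* was at 0 in every library. Over 209 genes above 0.5 CPM in the former and under 0.1 CPM in the 8 libraries other than these, 202 had a count in the latter, and their sums were 405 and 54.1 CPM.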

How the results depend on the processing

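With 2 libraries per condition, calls rested on the spread pooled over all conditions: the 4 libraries of 3.2 and 10 µM alone gave 0 calls among the 40 genes and 0 among all genes by edgeR (29 of the 40 higher at an unadjusted p below 0.05, smallest adjusted p 0.166), while DESeq2 on all libraries called 6 of the 40 genes and 54 genes in all. Leaving out each library at 3.2 and 10 µM and replicate 2 at 32 µM in turn (no other library was left out of this step) gave 1 to 5 calls among the 40 genes, 5 to 66 calls among all genes and a median step of 0.37 to 0.41. Only *Adh7* was called without replicate 1 or replicate 2 at 3.2 µM. Without replicate 1 at both 3.2 and 10 µM, chosen after seeing the data, there was 1 call among the 40 genes, 4 among all genes and a median step of 0.33. The median step was 0.42 with scaling by library size alone, and 0.31 with a mean of at least 5 CPM, which left 32 of the 40 genes and removed *Enpp2*. *Slpi* turned to −0.19 without replicate 1 at 10 µM and to −0.25 without replicate 1 at both doses, and was 0.95 without replicate 2 at 10 µM.

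The number of genes that the rule chose was 17 with a pseudocount of 5, 11 with a limit of 1 at 32 µM, and 36 to 43 without 1 library of DMSO, DMSO + LPS or 32 µM. With the replicate number as a block, 5 of the 40 genes and 43 genes in all were called with a median step of 0.40, and 12 of the 40 had an adjusted p below 0.05, *Mir22hg* (0.0499), *Opn3* (0.0497) and *Sqstm1* (0.0401) among them. The replicates share only a number in the labels, and the replicate differences of the 10 pairs of conditions correlated at −0.169 to 0.573 (0.573 for 3.2 and 10 µM), not all above 0.1, so they were not treated as pairs.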
